A study of Mus musculus with 8 samples.

Results

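The genes described here encode the subunits of the proteasome, its regulators and its assembly chaperones. They were chosen by symbol, as every gene in the table of 24354 whose name is Psm, a letter from a to g and a number, without the immunoproteasome subunits Psmb8, Psmb9 and Psmb10. This gave 45 genes, of which 44 had a mean of at least 1 FPKM (fragments per kilobase of transcript, scaled to library depth) in at least 1 group and could be tested beside 13239 such genes in all. For 43 of the 44 the mean reached 1 FPKM in every group, and Psma8 passed through the pluripotent groups alone. RNA sequencing covered 8 libraries, 2 each of mouse wild-type E14 embryonic stem cells (ESCs), OG2+/- ROSA26+/- neural stem cells (NSCs), wild-type extended pluripotent stem cells (EPSCs) of the C57BL/6 strain at passage 15, and EPSC-NSC hybrid cells at passage 10. The hybrid cells were near-tetraploid and made by polyethylene-glycol fusion of EPSCs with NSCs. The NSCs carried GFP under the distal Oct4 enhancer and a ubiquitous lacZ gene. ESCs were grown in serum with LIF, NSCs in N2 medium with EGF and FGF2 on gelatin, and EPSCs and hybrid cells in N2B27 with LIF, the GSK3 inhibitor CHIR99021, minocycline and dimethindene maleate. All but the NSCs grew on inactivated fibroblasts. Both libraries of a group came from 1 line, so every p-value below measures the spread between repeated libraries, and medium, strain and line cannot be told apart from cell type.

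The proteasome degrades proteins that carry ubiquitin chains. Its barrel-shaped core particle is built from rings of alpha subunits (Psma genes), which form the gate, and beta subunits (Psmb genes), of which Psmb5, Psmb6 and Psmb7 carry the proteolytic sites. The regulatory particle sits on the core: a ring of ATPases (Psmc genes) unfolds the substrate, and the non-ATPase subunits (Psmd genes) form the rest of the base, which binds ubiquitin, and the lid, which removes it. Psmg proteins and 3 of the Psmd proteins are chaperones that help assemble these parts and are absent from the finished particle. Psme proteins are alternative activators of the core. Cells of all types depend on the proteasome, and pluripotent cells are known for high proteasome activity.

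The labels were checked against 9 marker genes of each cell type. All 9 pluripotent markers were called higher in ESCs, EPSCs and hybrid cells than in NSCs, where Pou5f1 and 4 others were listed at 0 in both libraries, and all 9 neural stem cell markers were called lower. The fibroblast markers, whose cells served as feeders, summed to 11.4 and 12.6 FPKM in ESCs, 4.21 and 4.14 in NSCs, 84.5 and 81.5 in EPSCs, and 321 and 239 in hybrid cells. One of the 9, Postn, is also a gene that the paper takes as EPSC-specific. Pdgfra went the other way against NSCs, at 3.13 and 2.91 FPKM in NSCs and 1.33 and 1.15 in EPSCs. No fibroblast marker was at 0 in EPSCs or hybrid cells, and all 9 were called higher in hybrid cells than in EPSCs. By sum, the fibroblast markers were thus highest in the groups that were also highest for most proteasome genes, and their part in the results was not tested. Approximate depth, derived from the steps on which low FPKM values lie, was 22.1 to 32.6 per library in units of 1000000 fragments. Summed over all genes, FPKM came to 415240 and 415412 in the NSC libraries and to between 600674 and 653796 in the others.

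Proteasome genes were among the most abundant transcripts in every library. The 31 structural subunits of core, base and lid lay between the 90.4th and 98.9th percentile of the expressed genes of their library, with a median FPKM of 106 and 106 in NSCs, 149 and 140.2 in ESCs, 232 and 217 in EPSCs and 210.2 and 227 in hybrid cells. The 13 other expressed members, namely chaperones, activators, the inhibitor and Psma8, were lower, with medians of 28.2 and 27.4, 42.9 and 43.9, 42.7 and 42.3 and 48.4 and 46.5. The structural subunits were thus several times more abundant than the accessory members in each library, and the accessory medians of the 3 pluripotent groups lay close together. By group mean as deposited, 25 of the 44 were highest in hybrid cells and 14 in EPSCs, and 37 were lowest in NSCs. With libraries scaled to the same sum, 23 of the 44 changed direction between ESCs and NSCs, so the last count holds for the deposited scale only. The share of all tested genes is not given for the counts of highest and lowest groups, which describe the 44 genes only. Within a group, the 2 libraries differed by at most 1.22-fold, for Psmd6.

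**Figure D1:**
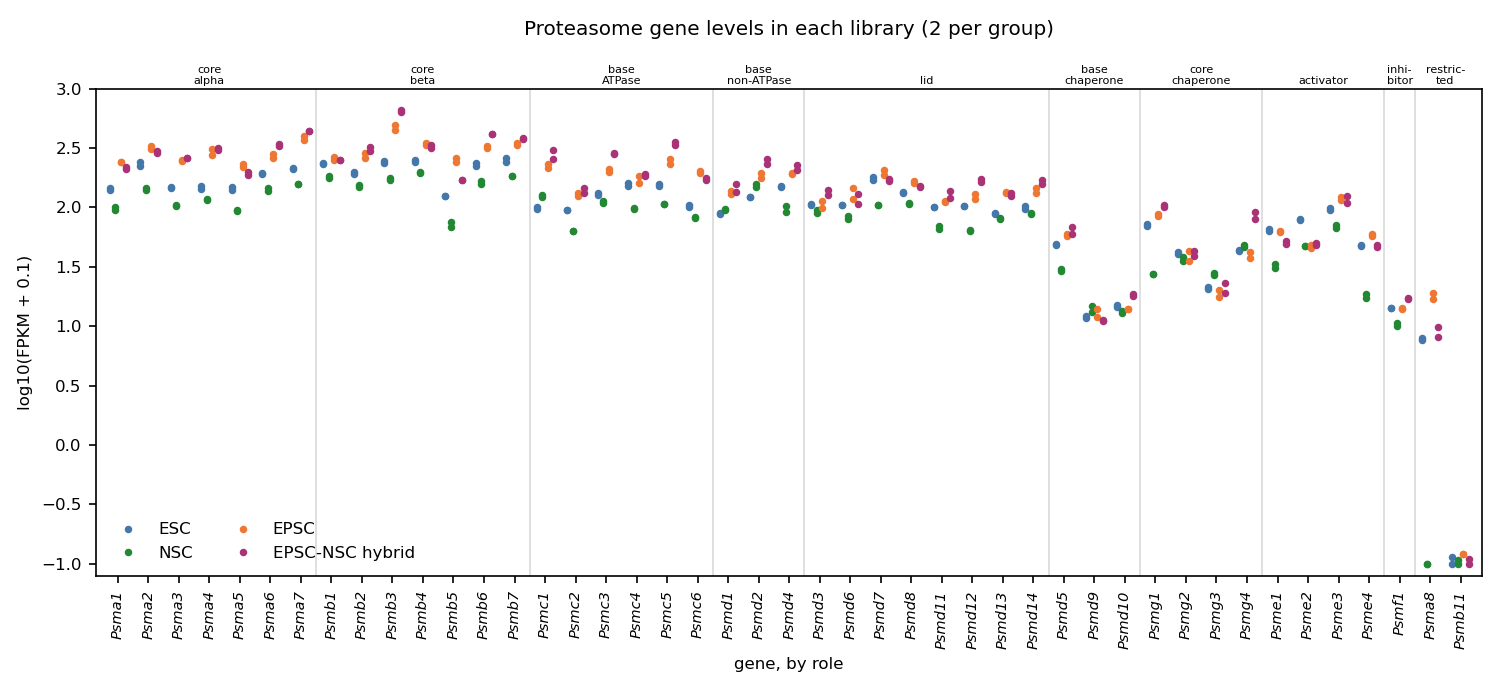
Level of each of the 45 proteasome genes in each of 8 libraries, as log10(FPKM + 0.1), with 2 points per group and genes ordered by role. Most structural subunits lie above 2 on this scale, most NSC points lie lowest, and Psmb11 lies at the floor in all groups.

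A scale-free view gave part of the same order. The 45 genes took 0.873 and 0.872% of the summed FPKM in ESC libraries, 0.954 and 0.958% in NSCs, 1.20 and 1.19% in EPSCs and 1.32 and 1.29% in hybrid cells. The groups did not overlap, but ESCs were below NSCs by this share and above them by FPKM. The median percentile of the 44 genes was 93.6 and 93.8 in ESCs, 94.2 and 94.1 in NSCs, 95.7 and 95.6 in EPSCs and 95.8 and 95.7 in hybrid cells. EPSCs and hybrid cells were therefore above NSCs on each of these scales. For the 31 structural subunits alone, the median percentile was 95.71 and 95.46 in ESCs and 95.13 and 95.03 in NSCs. For the 13 accessory members it was 82.9 and 83.5 in ESCs and 77.2 and 75.9 in NSCs. By percentile, ESCs were thus above NSCs in each of these subsets but below them over the 44 genes. The place of ESCs against NSCs depended on the scale and, by percentile, on the genes taken. No p is given for such summaries, since an exact two-sided permutation of 4 libraries reaches 0.333 at best.

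The 4 groups were compared in pairs with limma on log2(FPKM + 1), with Benjamini-Hochberg adjustment over all 13239 genes, and differences are given on that log2 scale. A rule on means alone, a mean over 3 FPKM and a ratio of means over 3, was applied beside it, and likewise with thresholds of 2. The former pair of thresholds stands in the methods of the publication and the latter in its results text. Against NSCs, 38 of the 44 genes were called higher in EPSCs and 2 lower (Psmg3 and Psmg4), whereas 45.2% of all tested genes were called higher and 41% lower. In hybrid cells 40 were called higher than in NSCs and 2 lower (Psmd9 and Psmg3), beside 44.5% and 42% of all genes. Psma8, listed at 0 in NSCs, is among the higher calls in each comparison with NSCs and had to differ there. The median difference of the 44 genes from NSCs was 0.89 in EPSCs and 1.02 in hybrid cells, against 0.08 and 0.06 over all genes. In bulk RNA, fewer cells of a type and less RNA per cell cannot be told apart. When each library was scaled to the same sum, which moved the median of all genes to −0.48 and −0.50, 29 members stayed called higher than NSCs in EPSCs with 9 called lower, and 26 in hybrid cells with 6 called lower. Of all genes, 30.4% and 30.2% were then called higher and 56.6% and 57.3% lower.

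ESCs were closer to NSCs. As deposited, 37 genes were called higher in ESCs than in NSCs and 4 lower, namely Psmc1, Psmd2, Psmd9 and Psmg3 (42.8% and 41.9% of all genes), with a median of 0.44, but with libraries scaled to the same sum the direction turned, to 9 higher and 20 lower with a median of −0.10 (29.2% and 56.3% of all genes, whose median was −0.46). After quantile normalization, 22 were higher and 6 lower (43.5% and 40.5% of all genes), so the higher calls were near the share of all genes and the lower calls below it. EPSCs and ESCs, whose summed FPKM were alike, differed mostly in 1 direction. As deposited, 32 genes were called higher in EPSCs and 1, Psme2, lower (33.7% and 27.3% of all genes), with a median of 0.44, and the other scalings gave 28 to 31 higher and 1 lower. Hybrid cells gave 34 higher and 2 lower, Psme1 and Psme2, than ESCs (35.3% and 30.2% of all genes) and a median of 0.49. Between hybrid cells and EPSCs, 17 genes were called higher in hybrid cells and 8 lower (22.5% and 21.9% of all genes), with a median of 0.12 against 0.00 over all genes. A fit of these 4 libraries alone called 9 and 4, beside 14.5% and 14.6% of the 11662 genes it tested. The 3 comparisons with NSCs share the NSC libraries, and likewise for the other groups, so they are not independent of each other.

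At thresholds of 3, few members passed the rule on means. They numbered 4 between EPSCs and NSCs (Psma8, Psmb5, Psme4 and Psmg1), 4 between hybrid cells and NSCs (Psma8, Psmb3, Psmc5 and Psmg1), and 1 between ESCs and NSCs (Psma8), where 28.8%, 29% and 27.6% of all tested genes passed. No member passed between hybrid cells and EPSCs, EPSCs and ESCs, or hybrid cells and ESCs, where 1.59%, 4.72% and 6.68% of all genes did. At thresholds of 2, 14 members passed between EPSCs and NSCs, 23 between hybrid cells and NSCs and 3 between ESCs and NSCs, beside 47.3%, 48% and 45.1% of all genes. Then 2 passed between hybrid cells and EPSCs (5.73% of all genes), 3 from ESCs to EPSCs (13%) and 6 from ESCs to hybrid cells (16.4%). The changes were thus broad in number and mostly under 3-fold. At thresholds of 3 with libraries scaled to the same sum, no other member than Psma8 passed in a comparison with NSCs. Psma8, listed at 0 in NSCs and tested only through the groups where it was present, had to differ from NSCs. Without it the counts against NSCs are 1 lower at thresholds of 3 and of 2, and so are the higher calls by limma.

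**Figure D2:**
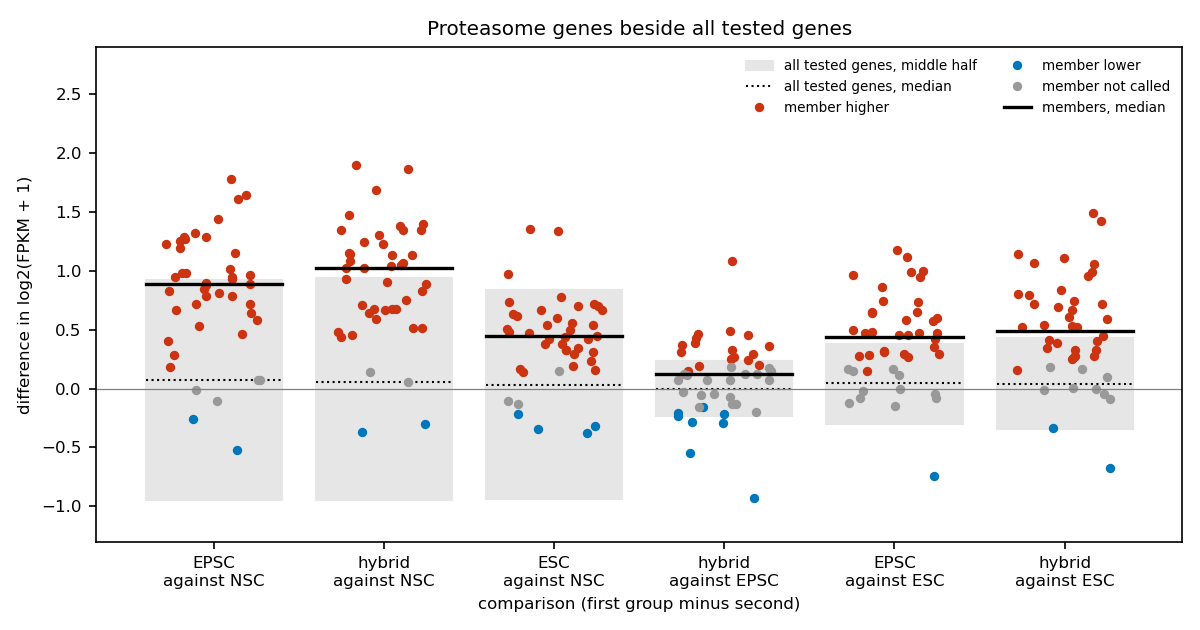
Difference in log2(FPKM + 1) of the tested proteasome genes in 6 comparisons, each point 1 gene coloured by its limma call, with the median of the members as a solid line and the median and interquartile range of all 13239 tested genes as a dotted line and a grey box. Psma8 is left out of the 3 comparisons with NSCs, where it was listed at 0. The members' medians against NSCs are 0.89, 1.02 and 0.44, and the last turns to −0.10 when libraries are scaled to the same sum.

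The promoters of the 4 genes below are shown since they mark the range of the results: Psmb5, a proteolytic subunit that fell from EPSCs to hybrid cells, Psmb6, another proteolytic subunit, which rose, Psmc1, the ATPase with the highest difference of EPSCs and hybrid cells from ESCs, and Psmg3, the lowest member against NSCs. Each runs 5′ to 3′ on the gene's strand from 250 bases before the RefSeq start to 50 after it in GRCm38.p6. They lie at chr14:54617946-54618245 (minus strand), chr11:70525107-70525406 (plus), chr12:100109952-100110251 (plus) and chr5:139826845-139827144 (minus). Capitals mark matches, on either strand, to TGACNNNGC, the core of the antioxidant response element that the proteasome regulator NRF1 (Nfe2l1) binds, to CCAAT, the NF-Y box, or to CCGGAA, the ETS core, and no 2 marked matches share bases.
Psmb5: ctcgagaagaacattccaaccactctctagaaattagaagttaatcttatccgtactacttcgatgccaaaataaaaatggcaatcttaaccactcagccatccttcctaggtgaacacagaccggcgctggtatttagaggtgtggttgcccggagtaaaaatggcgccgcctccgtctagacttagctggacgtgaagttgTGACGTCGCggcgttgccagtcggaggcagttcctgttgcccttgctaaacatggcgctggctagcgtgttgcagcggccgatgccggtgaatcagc
Psmb6: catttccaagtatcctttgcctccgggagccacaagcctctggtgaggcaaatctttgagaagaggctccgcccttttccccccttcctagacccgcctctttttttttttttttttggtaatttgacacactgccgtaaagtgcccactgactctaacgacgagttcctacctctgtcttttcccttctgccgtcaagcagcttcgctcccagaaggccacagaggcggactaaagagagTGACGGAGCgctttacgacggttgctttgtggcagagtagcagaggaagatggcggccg
Psmc1: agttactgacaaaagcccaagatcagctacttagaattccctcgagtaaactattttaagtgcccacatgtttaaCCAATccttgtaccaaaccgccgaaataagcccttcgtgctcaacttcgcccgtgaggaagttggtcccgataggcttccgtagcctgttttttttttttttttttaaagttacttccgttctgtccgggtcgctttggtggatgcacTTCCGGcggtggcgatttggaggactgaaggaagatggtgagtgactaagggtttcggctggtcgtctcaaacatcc
Psmg3: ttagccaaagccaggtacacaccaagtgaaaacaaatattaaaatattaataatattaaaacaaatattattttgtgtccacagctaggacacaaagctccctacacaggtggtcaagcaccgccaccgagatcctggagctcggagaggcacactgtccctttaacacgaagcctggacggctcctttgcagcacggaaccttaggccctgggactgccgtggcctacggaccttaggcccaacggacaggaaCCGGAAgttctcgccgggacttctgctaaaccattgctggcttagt

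Psmb5 and Psmb6 each held 1 match to TGACNNNGC, which began 47 and 9 bases before the start. Psmc1 held CCAAT, 175 bases before the start, and the ETS core, 27 bases before it, whereas Psmg3 held the ETS core alone, just after its start. Promoter sequences were matched for 37 of the 45 members, in 40 entries. TGACNNNGC was found in 6 of these entries (15.0%), in Psmb5, Psmb6, Psmc6, Psmd9, Psmd12 and Psme4, against 12.4% of all 32851 promoters and 14.4% of those of expressed genes. CCAAT was found in 13 entries (32.5%, against 37.4% and 38.0%). The ETS core was found in 21 entries (52.5%, against 14.9% and 26.3%), which belong to 20 genes. These shares describe letters in the window, and no binding was measured.

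All 14 core subunits were called higher in EPSCs and in hybrid cells than in NSCs, beside 45.2% and 44.5% of all genes. The 7 alpha subunits differed from NSCs by 0.95 to 1.32 in EPSCs and by 1.02 to 1.47 in hybrid cells, and stayed called higher under each scaling. The beta subunits were more uneven. With libraries scaled to the same sum, 6 of the 7 stayed called higher in EPSCs, and 5 in hybrid cells with 1 called lower. Of all genes, 30.4% and 30.2% were then called higher, and 57.3% lower in hybrid cells. Psmb3, a structural beta subunit, was at 170.1 and 177 FPKM in NSCs, 247 and 236 in ESCs, 496 and 452 in EPSCs and 664 and 635 in hybrid cells. As deposited, its libraries did not overlap between any of the groups. The direction of ESCs against NSCs turned when libraries were scaled to the same sum. Psmb3 was the highest core subunit in EPSCs and hybrid cells. Its difference from NSCs was 1.44 (standard error 0.06, adjusted p = 2.97e-07) in EPSCs and 1.90 (standard error 0.06, adjusted p = 7.55e-08) in hybrid cells by limma, a ratio of means of 3.75. Psmb1 had the lowest difference of the beta subunits, with 183 and 176 FPKM in NSCs and 253 and 250.04 in hybrid cells, and its direction against NSCs turned when libraries were scaled to the same sum or quantile-normalized.

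The proteolytic subunits did not move together. Psmb5, the chymotrypsin-like subunit, was at 76.0 and 68.5 FPKM in NSCs, 125 and 124 in ESCs, 258 and 241 in EPSCs and 172 and 169 in hybrid cells. It was the lowest core subunit in NSCs, ESCs and hybrid cells but not in EPSCs. Against NSCs it had the largest difference of any member present in both groups, 1.78 (standard error 0.06, adjusted p = 1.09e-07) in EPSCs, and against EPSCs it was lower in hybrid cells by limma, at −0.55 (standard error 0.06, adjusted p = 0.000803). Psmb6, the caspase-like subunit, was at 167 and 159 FPKM in NSCs, 238 and 225 in ESCs, 328 and 317 in EPSCs and 414 and 417 in hybrid cells, so that it was highest in hybrid cells. Its difference between hybrid cells and EPSCs was 0.37 (standard error 0.05, adjusted p = 0.00184) by limma, in the other direction from Psmb5. Psmb7, the trypsin-like subunit, was at 186 and 184 FPKM in NSCs, 258 and 242 in ESCs, 349.7 and 337 in EPSCs and 384 and 378 in hybrid cells. Its small rise from EPSCs to hybrid cells, 0.15 (standard error 0.05, adjusted p = 0.0491) by limma, lost its call when any single library was left out. Leaving out an ESC or NSC library does not change the difference of 0.15, so those losses do not bear on its size. RefSeq lists pseudogenes of Psma5, Psmb5, Psmb6 and Psmb7, so part of their reads could have been assigned to or from such copies.

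Ratios within a library, which multiplying a library by a constant does not change, gave the same contrast. The ratio of Psmb5 to Psmb6 was 0.456 and 0.432 in NSC libraries, 0.522 and 0.553 in ESCs, 0.789 and 0.761 in EPSCs and 0.414 and 0.405 in hybrid cells. EPSCs stood highest and hybrid cells lowest. The ratio of Psmb5 to Psmb7 was also highest in EPSCs, at 0.739 and 0.716, but hybrid cells, at 0.447 and 0.446, lay above NSCs, at 0.410 and 0.373, and below ESCs, at 0.482 and 0.513. Relative to the median of the 14 core subunits, Psmb5 was highest in EPSCs at 0.880 ± 0.0201, followed by ESCs at 0.612 ± 0.0111, hybrid cells at 0.549 ± 0.0144 and NSCs at 0.491 ± 0.0480 (SD, n = 2). Psmb3 was highest in hybrid cells at 2.09 ± 0.0117, followed by EPSCs at 1.67 ± 0.01002, ESCs at 1.19 ± 0.0171 and NSCs at 1.18 ± 0.00359. Psmb7, in contrast, was between 1.17 and 1.28 in all 8 libraries. The spread among the core subunits, as the ratio of the highest to the lowest, was 2.13 and 2.06 in EPSCs, 2.07 and 1.95 in ESCs, 2.57 and 2.91 in NSCs and 3.87 and 3.76 in hybrid cells.

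**Figure D3:**
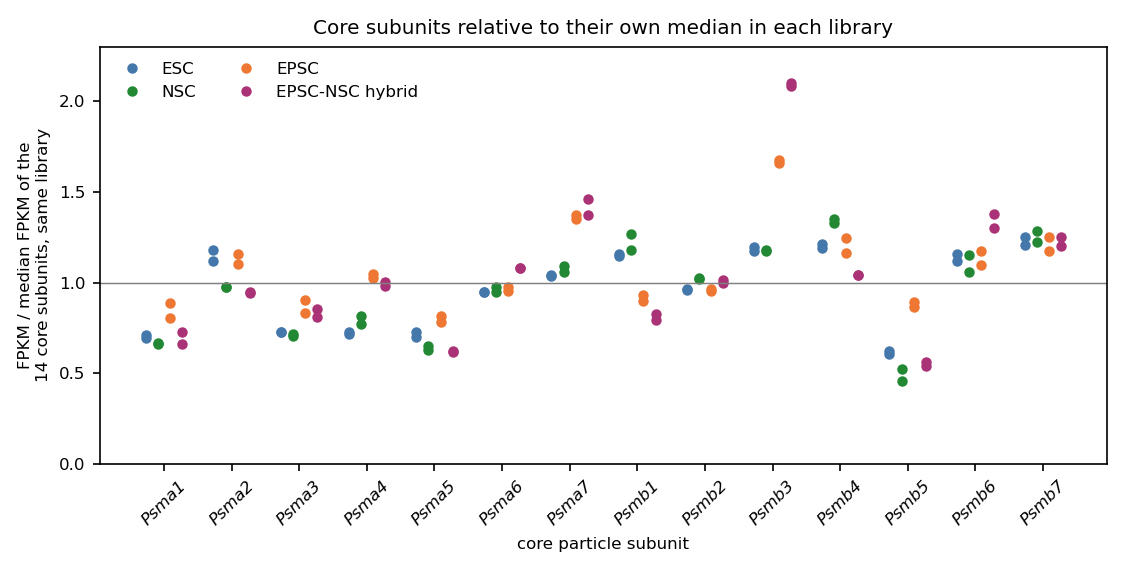
FPKM of each core subunit divided by the median FPKM of the 14 core subunits of the same library, with 2 points per group and a line at 1. Psmb3 stands at 2.09 in hybrid cells and Psmb5 at 0.88 in EPSCs but 0.55 in hybrid cells.

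In the base of the regulatory particle, all 6 ATPases were called higher in EPSCs and hybrid cells than in NSCs, also under each scaling. Of all genes, 45.2% and 44.5% were called higher as deposited, and 30.2% to 52.1% under the other scalings. Psmc1 (Rpt2) was at 123 and 128 FPKM in NSCs, 101 and 96.1 in ESCs, 232 and 217 in EPSCs and 304 and 255 in hybrid cells. ESCs were the lowest group for this gene, unlike the other ATPases as deposited, of which Psmc3, Psmc5 and Psmc6 also turned to below NSCs in ESCs with libraries scaled to the same sum. The difference of Psmc1 by limma was −0.35 (standard error 0.09, adjusted p = 0.00624) between ESCs and NSCs, 1.18 (standard error 0.09, adjusted p = 4.06e-05) between EPSCs and ESCs, and 1.49 (standard error 0.09, adjusted p = 1.04e-05) between hybrid cells and ESCs, the highest of any member in both comparisons with ESCs. Its rise of 0.31 from EPSCs to hybrid cells (adjusted p = 0.0233 by limma) was no longer called without the first hybrid library, at 0.18, or without the second EPSC library, at 0.26. It was also not called without the first NSC library, which leaves the 0.31 unchanged. Psmc5 (Rpt6) was at 106 and 107 FPKM in NSCs, 158 and 152 in ESCs, 257 and 233 in EPSCs and 354 and 335 in hybrid cells, and Psmc3 (Rpt5) at 113 and 108 FPKM in NSCs, 132 and 128 in ESCs, 209 and 200.4 in EPSCs and 285 and 279 in hybrid cells. Both were higher in each hybrid library than in any other library, and they differed from EPSCs by 0.49 (standard error 0.06, adjusted p = 0.00111) and 0.46 (standard error 0.05, adjusted p = 0.000618) by limma. Psmc6, at 203 and 197 FPKM in EPSCs and 177 and 169.9 in hybrid cells, went the other way (adjusted p = 0.0131 by limma).

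Psmd2 (Rpn1), the large scaffold that docks ubiquitin shuttles, was at 156 and 149.96 FPKM in NSCs, 122 and 123 in ESCs, 195 and 178 in EPSCs and 258 and 232 in hybrid cells. It was lower in ESCs than in NSCs, with a difference of −0.32 (standard error 0.07, adjusted p = 0.00307) by limma, and higher in hybrid cells than in EPSCs, with one of 0.39 (standard error 0.07, adjusted p = 0.00409). Psmd1, the companion scaffold, was at 96.7 and 95.3 FPKM in NSCs and 88.8 and 89.3 in ESCs, and this gap was not called as deposited (adjusted p = 0.218 by limma) but was called with libraries scaled to the same sum (−0.66) or quantile-normalized (−0.38), and turned to 0.12, not called, with median centring. Psmd4 (Rpn10), a ubiquitin receptor, was at 102 and 91.7 FPKM in NSCs, 149.7 and 151 in ESCs, 193 and 191 in EPSCs and 207 and 227 in hybrid cells. As deposited, NSCs were lowest and did not overlap with any other group. As a share of the summed FPKM of each library, ESCs and NSCs overlapped for Psmd4. The lower calls of Psmd2 and Psmc1 in ESCs were lost with median centring, at −0.09 and −0.12. Against NSCs, the direction of Psmd2 in EPSCs turned when libraries were scaled to the same sum or quantile-normalized.

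The 8 lid subunits were all called higher in each pluripotent group than in NSCs as deposited, with medians of 0.67 in hybrid cells, 0.69 in EPSCs and 0.32 in ESCs, but only 3 stayed called higher in EPSCs and 3 in hybrid cells, with 1 called lower in each, when libraries were scaled to the same sum. As deposited, 45.2%, 44.5% and 42.8% of all genes were called higher in EPSCs, hybrid cells and ESCs. With the same sum these shares were 30.4% in EPSCs and 30.2% in hybrid cells, with 56.6% and 57.3% called lower. The lid median in ESCs then turned to −0.23. Psmd14 (Rpn11), the deubiquitinase of the lid, was at 87.6 and 89.1 FPKM in NSCs, 102 and 97.0 in ESCs, 146 and 132 in EPSCs and 171 and 157 in hybrid cells. Its order ran from NSCs through ESCs and EPSCs to hybrid cells without overlap as deposited, but ESCs were below NSCs when libraries were scaled to the same sum (−0.38) or quantile-normalized (−0.10). Hybrid cells and EPSCs differed with an adjusted p of 0.025 by limma. Psmd11 (Rpn6), a lid subunit reported to raise proteasome assembly in human pluripotent cells, was at 65.7 and 70.1 FPKM in NSCs, 99.9 and 100.4 in ESCs, 114 and 111 in EPSCs and 137 and 119 in hybrid cells. It was lowest in NSCs as deposited, but as a share of the summed FPKM of each library, ESCs and NSCs overlapped. The difference between hybrid cells and EPSCs was not called (adjusted p = 0.0759 by limma). Psmd12 had the largest difference between hybrid cells and EPSCs among lid subunits, with 174 and 163 FPKM in hybrid cells and 130.3 and 119 in EPSCs, a difference of 0.43 (standard error 0.06, adjusted p = 0.00163) by limma.

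The ratio of the median of the 17 regulatory particle subunits to the median of the core subunits was 0.667 and 0.635 in NSC libraries, 0.510 and 0.524 in ESCs, 0.561 and 0.591 in EPSCs and 0.540 and 0.538 in hybrid cells. NSCs thus had the highest ratio and ESCs the lowest. These are ratios of FPKM, which are per length, and not of protein.

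The assembly chaperones were mixed. Against NSCs, 2 of the 7 were called higher and 2 lower in EPSCs, and 4 higher and 2 lower in hybrid cells, beside the 45.2% and 41%, and 44.5% and 42%, of all genes. With libraries scaled to the same sum the counts became 2 higher and 5 lower in EPSCs, and 2 higher and 3 lower in hybrid cells (30.4% and 56.6%, and 30.2% and 57.3%, of all genes). With median centring they were 4 higher and 1 lower in EPSCs, and 5 higher and 0 lower in hybrid cells (52.1% and 35.7%, and 51.4% and 35.7%, of all genes). Among the chaperones of the core, Psmg1 (PAC1), which with Psmg2 guides the alpha ring, was at 27.7 and 27.4 FPKM in NSCs, 69.3 and 73.0 in ESCs, 87.9 and 84.6 in EPSCs and 104 and 101 in hybrid cells. Its groups did not overlap and its difference from NSCs was 1.86 (standard error 0.05, adjusted p = 3.09e-08) in hybrid cells by limma, a ratio of 3.73. Its partner Psmg2 was at 35.4 and 38.5 FPKM in NSCs, 40.4 and 41.9 in ESCs, 42.7 and 35.3 in EPSCs and 42.5 and 39.2 in hybrid cells, with no call in any comparison as deposited. Against NSCs it was called lower in all 3 pluripotent groups with libraries scaled to the same sum (−0.54 to −0.39) and higher in all 3 with median centring (0.30 to 0.38). Its NSC libraries lay below those of ESCs and hybrid cells by narrow gaps and overlapped with those of EPSCs. Psmg3 was at 28.2 and 26.7 FPKM in NSCs, 20.45 and 21.4 in ESCs, 17.7 and 20.1 in EPSCs and 23.1 and 19.1 in hybrid cells. It was the member with the lowest difference from NSCs in all 3 pluripotent groups, −0.52 (standard error 0.10, adjusted p = 0.00159) in EPSCs, −0.37 in hybrid cells (adjusted p = 0.00924) and −0.38 in ESCs (adjusted p = 0.0087) by limma. The last 2 calls were lost without the first NSC library, at −0.33 and −0.34, and the ESC call also without the first ESC library, at −0.35. Both were also lost with median centring, at −0.14 and −0.15.

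Psmg4, the partner of Psmg3, was at 48.7 and 46.6 FPKM in NSCs, 42.9 and 43.9 in ESCs, 37.3 and 42.3 in EPSCs and 79.7 and 91.0 in hybrid cells. The hybrid libraries stood alone above the rest. Its difference between hybrid cells and EPSCs was 1.08 (standard error 0.08, adjusted p = 0.000193) by limma, a ratio of 2.15 and the largest of any member in that comparison, whereas Psmg3 was at 23.1 and 19.1 FPKM in hybrid cells and 17.7 and 20.1 in EPSCs and was not called. In EPSCs Psmg4 was lower than in NSCs by limma, with a difference of −0.26 (standard error 0.08, adjusted p = 0.0204). This call was lost without either NSC library (−0.22 and −0.29), without the first EPSC library (−0.17) and with median centring.

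Among the chaperones of the base, Psmd5 was at 30.0 and 29.1 FPKM in NSCs, 48.5 and 48.8 in ESCs, 57.7 and 59.7 in EPSCs and 60.2 and 67.8 in hybrid cells and rose with the subunits, by 0.97 (standard error 0.07, adjusted p = 3.37e-06) from NSCs to EPSCs by limma. Psmd9 was at 13.2 and 14.6 FPKM in NSCs, 12.1 and 11.6 in ESCs, 13.8 and 11.9 in EPSCs and 11.2 and 10.9 in hybrid cells. NSC values were highest on average, and the difference from NSCs was −0.30 (standard error 0.09, adjusted p = 0.0118) in hybrid cells by limma, which without the second NSC library became −0.24 and was no longer called, nor was it with median centring (−0.07) or quantile normalization (−0.16). Psmd10 (gankyrin) was at 13.4 and 12.9 FPKM in NSCs, 14.5 and 15.0 in ESCs, 13.96 and 13.8 in EPSCs and 17.8 and 18.4 in hybrid cells, so that hybrid cells were above the other groups, which lay close to each other, but the direction of all 3 pluripotent groups against NSCs turned when libraries were scaled to the same sum. It differed between hybrid cells and EPSCs by 0.36 (standard error 0.06, adjusted p = 0.00316) by limma. At 10.9 to 18.4 FPKM, Psmd9 and Psmd10 were far below the subunits they help assemble.

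Of the activators, Psme1 and Psme2 encode the alpha and beta subunits of the PA28 ring, which interferon induces in many cells. Psme1 was at 31.0 and 33.5 FPKM in NSCs, 65.9 and 62.8 in ESCs, 63.0 and 61.7 in EPSCs and 49.4 and 52.5 in hybrid cells. Psme2, which lies 5912 bases beyond it on chromosome 14, was at 47.3 and 47.2 FPKM in NSCs, 79.7 and 78.6 in ESCs, 47.8 and 45.8 in EPSCs and 50.1 and 48.4 in hybrid cells. The pair diverged: against NSCs, Psme1 was called higher in all 3 pluripotent groups, whereas Psme2 was called higher in ESCs alone, by 0.73 (standard error 0.05, adjusted p = 3.27e-06) by limma, and its gap was −0.01 in EPSCs and 0.06 in hybrid cells, neither called. This holds as deposited: with median centring Psme2 was called higher in EPSCs and hybrid cells too (0.21 and 0.29), and with libraries scaled to the same sum (−0.62 and −0.56) or quantile-normalized (−0.30 and −0.19) it was called lower in both. Psme1 lost its call in hybrid cells with libraries scaled to the same sum, at 0.04. Between EPSCs and ESCs, Psme2 was the lowest member, at −0.75 (standard error 0.05, adjusted p = 2.54e-05) by limma, while Psme1 was not called (−0.04, adjusted p = 0.551). Against EPSCs, hybrid cells had less Psme1, at −0.29 (standard error 0.06, adjusted p = 0.00815) by limma, and Psme2 was not called. The ratio of Psme1 to Psme2 within a library was 0.655 and 0.709 in NSCs, 0.827 and 0.799 in ESCs, 1.32 and 1.35 in EPSCs and 0.986 and 1.08 in hybrid cells. A near-identical gene, Psme2b, was listed at 0.245 to 0.394 FPKM, so few reads were assigned to it, although reads of the 2 copies can be split.

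The immunoproteasome subunits Psmb8, Psmb9 and Psmb10, which the rule left out, replace the proteolytic subunits in cells exposed to interferon. All 3 were called lower in EPSCs and in hybrid cells than in NSCs, beside 41% and 42% of all genes. In ESCs, Psmb8 and Psmb9 were called lower than in NSCs, beside 41.9% of all genes. Psmb10 was not called there, at −0.27 (adjusted p = 0.101) by limma. Psmb8 was at 2.56 and 2.98 FPKM in NSCs, 1.03 and 0.898 in ESCs, 0.403 and 0.343 in EPSCs and 0.329 and 0.865 in hybrid cells, and Psmb10 at 13.8 and 12.3 FPKM in NSCs, 10.98 and 10.4 in ESCs, 7.57 and 6.18 in EPSCs and 5.51 and 4.13 in hybrid cells. Both were thus far below each of the 14 core subunits that are not tissue-restricted. Irf1, an interferon-induced transcription factor, was higher in EPSCs than in ESCs, at 0.89 (adjusted p = 0.000141) by limma, in the other direction from Psme2.

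Psme3, the nuclear PA28-gamma activator, was at 67.6 and 70.5 FPKM in NSCs, 94.9 and 98.0 in ESCs, 123 and 116 in EPSCs and 125 and 109.7 in hybrid cells, with NSCs lowest as deposited, though the direction of ESCs turned with libraries scaled to the same sum (−0.07), and with EPSCs and hybrid cells overlapping. Psme4 (PA200), a large nuclear activator linked to histone turnover, was at 17.3 and 18.7 FPKM in NSCs, 47.9 and 47.4 in ESCs, 59.3 and 57.5 in EPSCs and 48.4 and 46.5 in hybrid cells. NSC values were far below all others. Its difference from NSCs was 1.64 (standard error 0.06, adjusted p = 9.21e-08) in EPSCs and 1.35 (standard error 0.06, adjusted p = 2.49e-07) in ESCs by limma, and its difference between hybrid cells and EPSCs was −0.29 (standard error 0.06, adjusted p = 0.00551). Psmf1 (PI31), known as an inhibitor of the core in vitro, was at 10.6 and 10.04 FPKM in NSCs, 14.3 and 14.05 in ESCs, 14.1 and 13.8 in EPSCs and 16.8 and 17.3 in hybrid cells, with NSCs lowest and hybrid cells highest. Its direction against NSCs in EPSCs and ESCs turned when libraries were scaled to the same sum.

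Psma8 and Psmb11 are tissue-restricted core subunits, of the testis and of the thymic cortex. Psma8 was listed at 0 in both NSC libraries and was at 7.58 and 7.86 FPKM in ESCs, 18.95 and 16.9 in EPSCs and 9.81 and 8.09 in hybrid cells. All 6 pluripotent libraries thus held it, with EPSCs above ESCs by 1.12 (standard error 0.10, adjusted p = 0.000111) by limma. Hybrid cells differed from EPSCs by −0.93 (standard error 0.10, adjusted p = 0.000729) by limma. Psma7, the alpha subunit that it can replace in the ring, was at 158 and 158 FPKM in the same NSC libraries and 403 and 370.0 in EPSCs, so Psma8 was a small addition by level. No fold is given against a group listed at 0. Psmb11, whose gene starts 7314 bases beyond Psmb5, was at 0 and 0.00855 FPKM in NSCs, 0.0152 and 0 in ESCs, 0.0223 and 0.0215 in EPSCs and 0.0103 and 0 in hybrid cells. With 3 fragments as the floor, a transcript of 2 kb would need 0.0460 to 0.0680 FPKM at these depths, so Psmb11 was not detectable above that floor, which covers counting error only.

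Hybrid cells were compared with both parents. By group mean, 27 of the 44 genes were above both EPSCs and NSCs in hybrid cells, 16 between and 1, Psmd9, below. The share of all tested genes is not given for these counts, so they describe the 44 genes only. On the log2 scale 42 were nearer to EPSCs than to NSCs, all but Psme2 and Psmg4, beside 83.6% of all tested genes. By limma, 17 were called above both parents (12.7% of all genes) and 0 below both (9.7% of all genes). Fibroblast markers rose in the same comparison with EPSCs, as given above, and their part in the result was not tested. The 17 were Psma6 and Psma7, Psmb2, Psmb3, Psmb6 and Psmb7, Psmc1, Psmc3 and Psmc5, Psmd2, Psmd3, Psmd12 and Psmd14, and the accessory genes Psmd10, Psmf1, Psmg1 and Psmg4. They thus came from all parts of the particle, and no activator was among them. With libraries scaled to the same sum, 12 of the 17 stayed called above both (9.09% of all genes). Psmd2, Psmd10, Psmd3, Psmf1 and Psmg4 did not, and the direction of Psmd3 and Psmd10 against NSCs turned. The 8 called lower in hybrid cells than in EPSCs were Psma1, Psma5, Psma8, Psmb5, Psmc6, Psmd7, Psme1 and Psme4, and Psma8 and Psmb5 had the largest differences.

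The split followed chromosomes in part, a feature noticed after the values were seen. Over all tested genes, the median difference between hybrid cells and EPSCs was above 0 on 9 chromosomes (1, 2, 4, 9, 11, 12, 16, 19 and X; 0.06 to 0.21) and below 0 on the other 11 (−0.19 to −0.11). Of the 23 members on the former, 16 were called higher in hybrid cells and 1 lower, beside 35.1% and 8.1% of all genes there. Of the 21 on the latter, 1 was called higher and 7 lower, beside 11.3% and 34.6%, so the lower calls there were near the share of all genes. Chromosome 11, with a median of 0.18 over 1026 genes, holds 8 members, of which Psmb3, Psmb6, Psmc5, Psmd3 and Psmd12 were called higher and Psme4 lower. Chromosome 14, with a median of −0.16, holds 5 tested members, of which Psmb5, Psmc6 and Psme1 were called lower. The exceptions were Psmg4 on chromosome 13 (median −0.19), which rose, and Psme4.

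When the median of its chromosome was subtracted from each gene, 12 members were called higher and 3 lower between hybrid cells and EPSCs, beside 18.5% and 17.8% of the 12586 genes with a position. Psmg4 then differed by 1.27, Psma8 by −0.82, Psme4 by −0.47, Psmb5 by −0.39, Psmc5 by 0.31, Psmc3 by 0.29 and Psmb3 by 0.28, so that the leading genes of both directions kept their calls. Psma7, Psmb2, Psmb7, Psmd14, Psmg1 and Psmf1 were then within 0.10 of 0 and not called, and Psmc1, Psmd2 and Psmd3 also lost their calls. Psmc2, Psmc4, Psmd4 and Psme2 were called higher with the subtraction alone. Of the lower calls, those of Psma1, Psma5, Psmc6, Psmd7 and Psme1 were lost, at −0.12 to −0.03. The paper karyotyped the hybrid cells and found them near-tetraploid, but its text gives no count for each chromosome. The RNA libraries hold no measure of DNA, so the number of copies of a chromosome and the level per copy cannot be told apart.

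**Figure D4:**
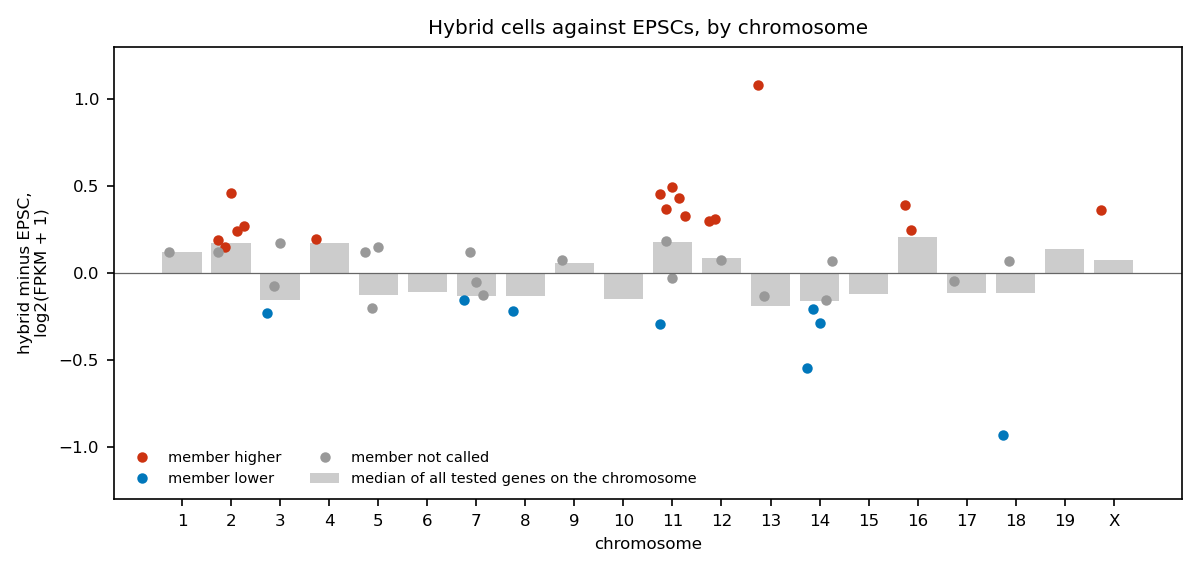
Difference between hybrid cells and EPSCs in log2(FPKM + 1) of the 44 tested proteasome genes (points, coloured by limma call) by chromosome, with the median of all tested genes on that chromosome as a bar. Most members called higher lie on chromosomes with a bar above 0, with Psmg4 on chromosome 13, at 1.08, as the exception.

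Other genes of the pathway were counted from lists of known members. Of 8 proteasome-associated proteins, 6 were called higher and 1 lower in EPSCs than in NSCs, and likewise in hybrid cells. Pomp, which is needed to complete the core, was at 167 and 169 FPKM in NSCs, 185 and 176 in ESCs, 275 and 248 in EPSCs and 250.3 and 224 in hybrid cells, and Adrm1, a ubiquitin receptor of the base, at 62.2 and 64.7 FPKM in NSCs, 112 and 114 in ESCs, 97.0 and 111 in EPSCs and 145 and 155 in hybrid cells. Adrm1 was higher in hybrid cells than in EPSCs, by 0.52 (adjusted p = 0.00151) by limma, whereas Pomp was not called. The exception that fell from NSCs was AI314180 (Ecpas), an adaptor linked to disassembly, with 21.7 and 23.3 FPKM in NSCs and 7.48 and 7.07 in EPSCs.

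Nfe2l1, which encodes the transcription factor NRF1 that induces proteasome genes when activity is short, was at 57.4 and 59.9 FPKM in NSCs, 72.0 and 74.8 in ESCs, 88.3 and 84.7 in EPSCs and 65.9 and 69.8 in hybrid cells. As deposited Nfe2l1 was lowest in NSCs, but as a share of the summed FPKM of each library it was highest there. Hybrid cells differed from EPSCs by −0.35 (adjusted p = 0.00262) by limma. In a list of 7 genes, made of Nfe2l1, its paralog Nfe2l2 (NRF2) and 5 genes that process NRF1, 4 were called higher and 2 lower (Nfe2l2 and Ngly1) in EPSCs than in NSCs, 5 and 1 in hybrid cells, and 3 and 4 in ESCs, where Nfe2l2 was again among the lower. Ddi2, the protease that releases NRF1, was at 13.2 and 13.3 FPKM in NSCs, 19.7 and 20.6 in ESCs, 34.0 and 31.9 in EPSCs and 35.0 and 27.6 in hybrid cells. Ngly1, which strips its sugars, was at 9.74 and 10.3 FPKM in NSCs, 3.74 and 3.68 in ESCs, 2.28 and 2.21 in EPSCs and 2.296 and 2.17 in hybrid cells, with NSCs highest by a wide gap. Among 10 ubiquitin and shuttle genes, 5 were called higher and 2 lower in EPSCs than in NSCs, and 6 and 4 in hybrid cells. The shares of all genes called higher and lower than in NSCs apply to these lists too. They were 45.2% and 41% in EPSCs, 44.5% and 42% in hybrid cells, and 42.8% and 41.9% in ESCs. At 5 and 2 of 10, the ubiquitin and shuttle genes were near the former share and below the latter in EPSCs. These list counts are as deposited. Ubb, a polyubiquitin gene, was at 256 and 256 FPKM in NSCs, 562 and 528 in ESCs, 648 and 569.7 in EPSCs and 761 and 696 in hybrid cells, with NSCs lowest, and the shuttle Ubqln2 was at 54.4 and 57.7 FPKM in NSCs, 34.9 and 35.3 in ESCs, 22.5 and 26.01 in EPSCs and 21.8 and 23.5 in hybrid cells, with NSCs highest.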

How the data were processed

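RNA was sequenced from 8 mouse libraries in 4 groups of 2 (poly-A selected, stranded, paired-end). The authors trimmed reads with skewer 0.2.2, aligned them to mm10 with STAR 2.7.9a, and deposited FPKM per gene and library as Cuffnorm of Cufflinks 2.2.1 gave them. The annotation and library normalization are not given in the sources used here, and replicates were not pooled. FPKM reflect both transcript level and the scaling between libraries, and NSC libraries had the lowest sums. No column belonged to other samples.

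Groups were compared with limma 3.58.1 in R 4.3.3 (lmFit, contrasts, eBayes with trend) on log2(FPKM + 1), 1 fit of 8 libraries over 13239 expressed genes (group mean of 1 FPKM or more), two-sided, called at a Benjamini-Hochberg adjusted p under 0.05. A rule on group means (mean FPKM and ratio over 3, as in the study's methods, or over 2, as in its results text) was applied without a p. The limma step was tested on simulated data. Depth was derived from FPKM steps of single-transcript genes in GENCODE M21 at an assumed fragment length of 200 bases. Promoters, positions and symbols came from RefSeq (GRCm38.p6) and ratios and percentiles from Python 3.11.15.

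The members and gene lists were chosen with earlier results of these data known. Values in every library are given for a set list of members (proteolytic subunits, Psmd4, Psmd11, Psmd14, chaperones, activators, Psmf1, Psma8 and Psmb11) and for the 3 highest and 3 lowest members of each comparison. Others, among them Psmb1, Psmd1, Psmd12, Psmc6 and Psma7, and genes of other lists, were named after their values were seen. An item of the interferon gene list, and the counts over that list, are not reported here. Alternatives covered the pseudocount, the filter, the scaling, the libraries in the fit, the replicate number as a block, and each library left out in turn, and subtraction of chromosome medians was added after seeing the data.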

Additional observations from a re-analysis of the deposited data

How the results depend on the processing

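The 6 comparisons of the 44 genes were refitted under each alternative. Higher calls moved by over 1.5 times with libraries scaled to the same sum (26 in hybrid cells and 9 in ESCs, against NSCs), with quantile normalization (22, ESCs against NSCs) and with the 4 libraries alone (9, hybrid cells against EPSCs). Lower calls were few and moved more. Against NSCs they became 9, 6 and 20 in EPSCs, hybrid cells and ESCs with libraries scaled to the same sum, 1, 0 and 0 with median centring, and 5 in EPSCs with quantile normalization, which gave 4 between hybrid cells and ESCs. Between hybrid cells and EPSCs they were 4 in the 4 libraries alone. With chromosome medians subtracted, an alternative chosen after seeing the data, they were 4 (EPSCs against NSCs), 3 (hybrid cells against EPSCs) and 3 (EPSCs against ESCs). With 1 library left out, lower calls ranged from 1 to 2 in EPSCs and hybrid cells and from 2 to 4 in ESCs against NSCs, and from 4 to 8 between hybrid cells and EPSCs. The lowest of these came without either NSC library or the first EPSC library (EPSCs against NSCs), without either NSC library (hybrid cells), without the first ESC or first NSC library (ESCs), and without the first EPSC library (hybrid cells against EPSCs). The cause of these shifts was not tested. The median of the members in ESCs against NSCs turned from 0.44 to −0.10 with libraries scaled to the same sum. Psmd9 in EPSCs against NSCs, −0.10 and not called, became 0.12 with median centring and 0.021 with quantile normalization, and Psme2 in hybrid cells against NSCs, 0.06 and not called, became −0.56 and −0.19 with libraries scaled to the same sum and quantile normalization.

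With thresholds of 2 in place of 3, members past the rule on means numbered 14, 23 and 3 against NSCs in EPSCs, hybrid cells and ESCs, 2 between hybrid cells and EPSCs, and 3 and 6 against ESCs in EPSCs and hybrid cells. At thresholds of 3 with libraries scaled to the same sum, 1 passed in EPSCs and 1 in hybrid cells against NSCs. Also at thresholds of 3, between hybrid cells and ESCs, 0 to 1 passed with 1 library left out, the 1 without the second hybrid library. The median percentile over members and libraries was 94.01 among genes of at least 3 FPKM.

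With the replicate number as a block, higher calls were 38, 40 and 36 against NSCs in EPSCs, hybrid cells and ESCs, 17 between hybrid cells and EPSCs, and 33 and 34 against ESCs in EPSCs and hybrid cells. The numbers share no stated origin: deviations of same-numbered libraries correlated across genes with r = 0.28 for hybrid cells and EPSCs and between −0.11 and 0.07 otherwise. With 2 libraries of 1 line per group, depth limits low members such as Psmb11, and the scaling of NSC libraries limits directions against NSCs, since called differences of up to 0.59 turned with libraries scaled to the same sum.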
